A study of Mus musculus with 3 samples.

Results

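The 7 protein-coding genes of respiratory complex I that lie on the mouse mitochondrial chromosome were mt-Nd1, mt-Nd2, mt-Nd3, mt-Nd4l, mt-Nd4, mt-Nd5 and mt-Nd6. They were chosen by position on chrM of build mm9 and not by a measured value, although earlier results of these data were known by then. Together they span 6340 bases, or 38.9% of the 16299 bases of this chromosome. DNA bound by mTOR or ERRα was isolated by chromatin immunoprecipitation and sequenced (ChIP-seq) from livers of C57Bl/6 male mice aged 2 to 3 months, with rabbit IgG as the control antibody. No treatment, genotype or transgene is named in the labels of these 3 libraries. For mTOR and for ERRα, 8 immunoprecipitations were made from a pool of 26 livers and combined into 1 library, while how the IgG library was pooled is unknown here. With 1 library per group, nothing below could be checked against a replicate, no test between groups could be made, and each comparison is one of libraries.

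Complex I, or NADH dehydrogenase, is the proton-pumping enzyme by which electrons from NADH enter the respiratory chain. Its membrane arm is built around the subunits that these mitochondrial genes encode, while the remaining subunits are encoded in the nucleus and imported. Mitochondrial DNA is a circle present in many copies per cell, is packed by TFAM and not by histones, and is transcribed from both strands into long precursor RNAs that are cut at the intervening tRNAs. mt-Nd6 is the only one of the 7 that is read from the light-strand promoter. mTOR is a kinase that controls growth and metabolism, and ERRα is a nuclear receptor known for activating nuclear genes of oxidative phosphorylation.

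The values are tag coverage per base, scaled by the authors to 10000000 tags per library. The library totals were 62500000, 74200000 and 68800000 tags for mTOR, ERRα and IgG, so that 1 tag was worth 0.16, 0.135 and 0.145 units of coverage. Intervals are exact (Clopper-Pearson) 95% intervals of a ratio of approximate tag numbers and cover counting error only. If every position and strand had given at most 1 tag of about 149 bp, coverage could not exceed 47.8, 40.2 and 43.6 units in the mTOR, ERRα and IgG libraries. Of the covered bases of the genes, 95.3%, 94.6% and 94.8% lay above these levels. Tags with the same position and strand were therefore counted more than once, and the intervals, which treat tags as independent, are too narrow.

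Not all of the 7 genes could be read along their length. IgG coverage was above 0 at 5182 of their 6340 bases, and the other 1158 bases (18.3%) were left out. The missing bases fell in 2 stretches of the chromosome, chrM:6542-9683 and chrM:9961-10893, where the mTOR track covered only 2 and 9 bases and the ERRα track 4 and 9. mt-Nd1, mt-Nd2, mt-Nd5 and mt-Nd6 were covered at every base. mt-Nd3 lacked 64.7% of its bases, mt-Nd4l 71.7% and mt-Nd4 52.8%, so that nothing was measured in the lower-numbered 727 bases of mt-Nd4. Copies of mitochondrial DNA in the nuclear genome can make short reads ambiguous, but the treatment of reads with several matches is unknown here, and their part in the gaps was not tested.

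Over the covered bases of all 7 genes, coverage averaged 297 for mTOR, 122 for ERRα and 128 for IgG. The mTOR ChIP stood at 2.31 times IgG (interval 2.28 to 2.35), and the ERRα ChIP at 0.950 times (0.935 to 0.965). The direct ratio of mTOR to ERRα, in which the shared IgG library has no part, was 2.44 (2.40 to 2.47). These averages hide a split: mTOR exceeded IgG at nearly every base, whereas ERRα exceeded it mainly at the start of mt-Nd1, and without mt-Nd1 the pooled ERRα ratio was 0.846.

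Nuclear DNA gave a scale for these ratios. It cannot tell binding at these genes apart from a larger share of mitochondrial DNA in the mTOR library, and neither was tested. Of all coverage, chrM took 0.293% in the mTOR library, 0.0974% in ERRα and 0.0981% in IgG. All covered bases of chrM together stood at 2.98 times IgG for mTOR, above the 7 genes. In 237570 bins of 10 kb on chromosomes 1 to 19, the median ratio to IgG was 0.974 for mTOR (5th to 95th percentile 0.798 to 1.25) and 0.965 for ERRα (0.789 to 1.31), and 0.190% of bins reached the mTOR ratio of the 7 genes. A nearer match in brightness came from the 97 nuclear bins of 200 bp with IgG coverage of at least 128, the mean of the 7 genes, a threshold chosen after the data were seen. There the mTOR ratio had a median of 0.936 and a maximum of 1.07, so that none of these bins came near the mTOR ratio of the complex I genes. The ERRα ratio at the same bins had a median of 0.860 (5th to 95th percentile 0.828 to 0.897), close to the 0.838 found over mt-Nd4, mt-Nd5 and mt-Nd6 pooled. These bins lay on 10 chromosomes, with 58 of them on chromosome 9, and are not independent. In the wider set planned at first, 2343 bins with IgG coverage of at least 5.57, the medians were 0.945 for mTOR and 0.894 for ERRα, but 58 bins (2.48%) reached the mTOR ratio of the 7 genes, with a maximum of 10.04, and 33.4% reached their ERRα ratio.

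**Figure D1:**
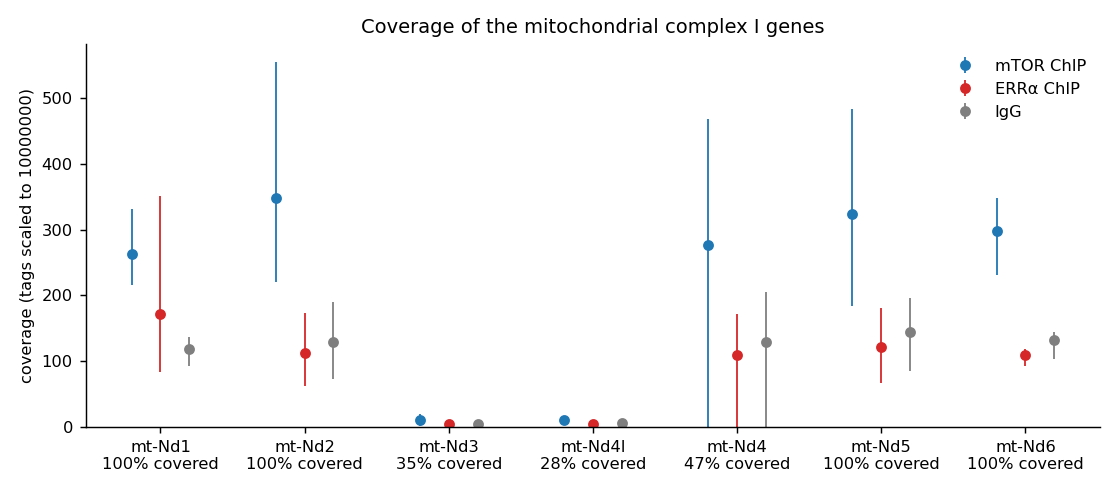
Mean coverage per base (vertical axis, tags scaled to 10000000) of the 7 genes in the 3 libraries. Points are means over the bases with IgG coverage, lines run from the lowest to the highest base, and the percentage under each gene is the share of bases covered; mt-Nd3 and mt-Nd4l lie near 0 in every library, and mTOR is the highest library in each gene.

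mt-Nd1 encodes the subunit at the joint between the membrane arm and the NADH-oxidising arm, close to where ubiquinone enters. It occupies chrM:2751-3707, directly after a leucine tRNA gene, and its coverage averaged 262 for mTOR, 172 for ERRα and 118 for IgG. ERRα stood at 1.45 times IgG (1.40 to 1.50), higher than in mt-Nd2, mt-Nd5, mt-Nd6 and the covered part of mt-Nd4, none of whose intervals came near it. Most of this came from the start of the gene, and the median over single bases was only 1.07.

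Along mt-Nd1 the ERRα ratio fell step by step. In its bases 1 to 100, ERRα coverage was 336 against 115 in IgG, a ratio of 2.94 (2.66 to 3.24). The ratio was 2.45 over bases 101 to 200, 1.76 over bases 201 to 300, 1.42 over bases 301 to 400 and 1.14 (1.02 to 1.27) over bases 401 to 500. From base 527 on, at chrM:3277, ERRα coverage stayed at or under IgG for at least 100 bases, and over the last 479 bases of the gene the ratio was 0.935 (0.885 to 0.988). The gene thus held both a strongly raised beginning and a remainder slightly under IgG. The stretch that follows, up to mt-Nd2, stood at 0.964 (0.890 to 1.04). mt-Nd4, mt-Nd5 and mt-Nd6 pooled stood lower, at 0.838 (0.821 to 0.855).

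The top of this ERRα signal lay just outside the gene, 68 bases before its first base at chrM:2683, where ERRα coverage was 349.8 against 104.4 in IgG, or 3.35 times. The highest ratio inside the gene was 3.07, at chrM:2753. Measured at the midpoint between the top and the median of windows inside the genes (0.851), the signal was 434 bp wide, chrM:2501-2934, with 184 bp of it in mt-Nd1 and 250 bp before it. Inside the gene IgG averaged 115 in bases 1 to 100 and 117 over the last 479 bases. Before the gene it was lower where the ratio was highest, at 95.01 in chrM:2501-2600 and 99.6 in chrM:2601-2700, against 128 in chrM:2301-2400, while ERRα coverage rose from 218 in chrM:2301-2400 to 312 in chrM:2601-2700. Without IgG in the ratio, the ends of the gene also differed: mTOR was 0.805 times ERRα (0.746 to 0.868) in bases 1 to 100 and 2.57 times in bases 901 to 957.

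The mTOR ChIP did not share this shape. Its ratio to IgG over mt-Nd1 was 2.22 (2.15 to 2.29), and it stood at 2.36 in bases 1 to 100, 1.91 in bases 201 to 300 and 2.49 in bases 901 to 957. Of the 100-bp windows tiled along the chromosome that lay inside the 7 genes, the one with the lowest mTOR ratio was chrM:2901-3000 in mt-Nd1, at 1.94 (1.74 to 2.16), and there ERRα stood at 2.04. The next lowest were chrM:13501-13600, across mt-Nd5 and mt-Nd6, at 1.94 and chrM:4201-4300 in mt-Nd2 at 1.96. Only in 2 windows inside the genes was ERRα above mTOR, and both lay in mt-Nd1. In chrM:2901-3000, mTOR was 0.953 times ERRα, with an interval (0.874 to 1.04) that held 1. Among the 119 covered windows of the chromosome, the only others were those just before, chrM:2601-2700 at 0.848 and chrM:2701-2800 at 0.780.

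**Figure D2:**
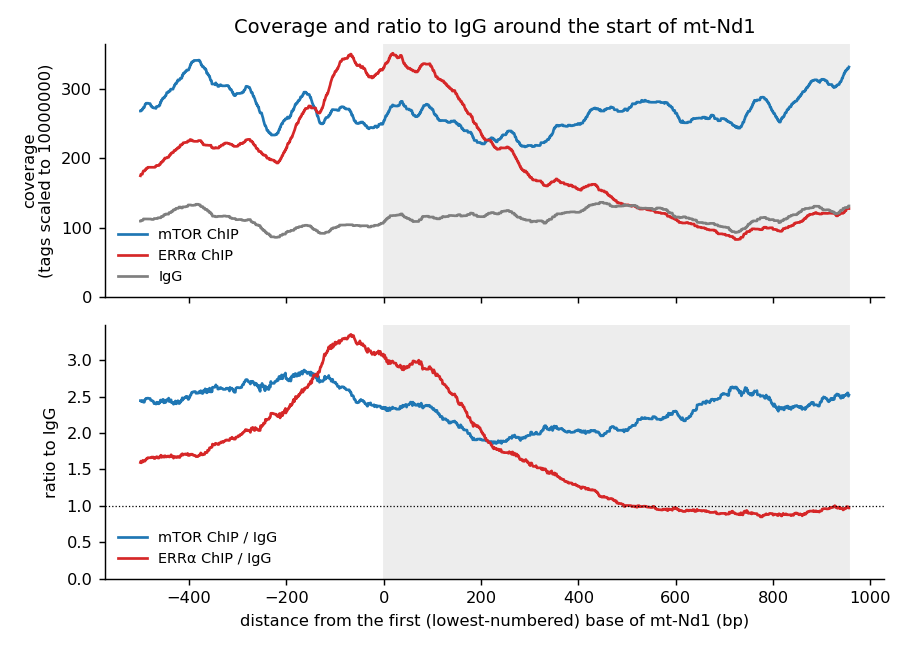
Coverage (upper panel, tags scaled to 10000000) and ratio to IgG (lower panel) of each library against distance in bp from the lowest-numbered base of mt-Nd1, with the gene shaded and the dotted line at a ratio of 1. The ERRα ratio peaks at 3.35, 68 bases before the gene, and declines to about 1 near base 527, while mTOR stays between about 1.9 and 2.9 times IgG.

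mt-Nd2 encodes one of the 3 antiporter-like subunits of the membrane arm, together with mt-Nd4 and mt-Nd5. It occupies chrM:3914-4951 and had the highest mTOR coverage of the 7 genes, with a mean of 348, while ERRα averaged 112 and IgG 129. The mTOR ratio was 2.70 (2.62 to 2.78), above every other member. Its interval did not overlap that of mt-Nd6, the next in order, although the wide intervals of mt-Nd3 and mt-Nd4l overlapped it. By the median over single bases, mt-Nd2 was at 2.266, below mt-Nd6 at 2.287 and mt-Nd5 at 2.274, so the first rank did not hold for that measure. ERRα stood at 0.873 (0.842 to 0.905), and no base of the gene had ERRα above IgG.

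The mTOR excess sat in the far part of the gene. Over its lower-numbered 519 bases (chrM:3914-4432) mTOR was 2.08 times IgG (2.00 to 2.17), like the other genes, and over the remaining 519 bases (chrM:4433-4951) it was 3.50 times (3.35 to 3.65). The rise was gradual, from 1.99 in bases 401 to 500 to 2.40, 3.07, 3.65 and 4.36 in the next 4 steps of 100 bases, followed by 4.08 in bases 901 to 1000 and 3.24 in bases 1001 to 1038. The highest ratio was 4.77 at chrM:4753, 198 bases before the end of the gene, where coverage was 525.3 for mTOR, 91.4 for ERRα and 110.1 for IgG.

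The mTOR rise was measured at the midpoint between this top and the median of windows inside the genes (2.24). At that level it was 255 bp wide, chrM:4641-4895, and lay wholly inside mt-Nd2. Below that level it ran on to the border of the gene, with chrM:4901-5000, partly outside, still at 3.14. The tag length of about 149 bp sets a lower limit on such widths. From bases 401 to 500 to bases 801 to 900, mTOR coverage rose from 252 to 485. IgG fell from 127 to 111 over the same steps, which made a part of the rise in the ratio. From bases 701 to 800 to bases 901 to 1000 all 3 libraries fell, mTOR from 507 to 323, ERRα from 112 to 67.3 and IgG from 139 to 79.0. The highest mTOR base in all 7 genes, 553.6, was at chrM:4684 in this gene. Against ERRα, mTOR was 5.50 times (4.96 to 6.11) in bases 801 to 900 and 2.26 times in bases 401 to 500.

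**Figure D3:**
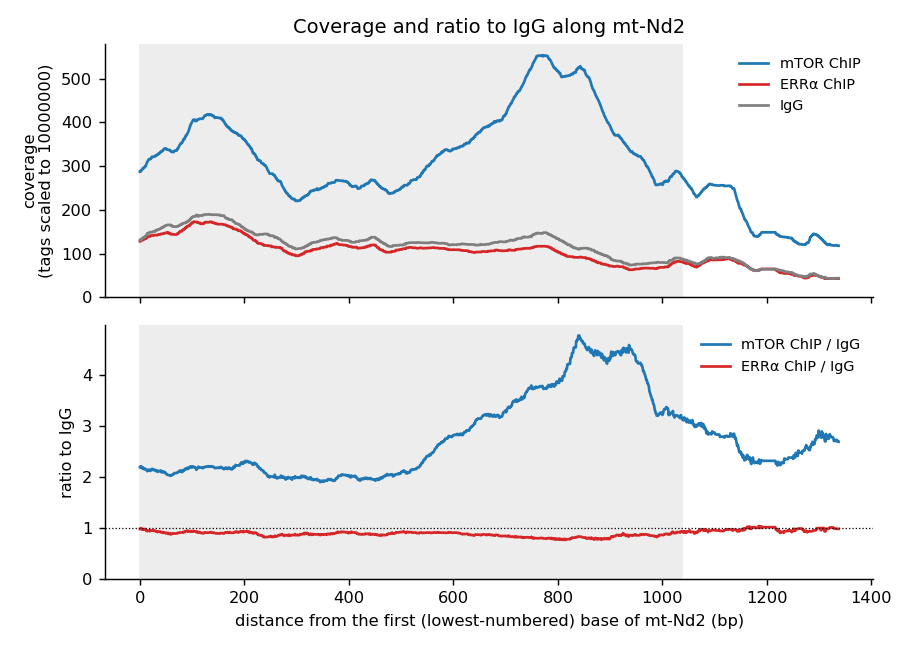
Coverage (upper panel, tags scaled to 10000000) and ratio to IgG (lower panel) against distance in bp from the lowest-numbered base of mt-Nd2, with the gene shaded. The mTOR ratio rises from about 2 to 4.77 before the end of the gene and falls beyond it, while the ERRα line stays near or under the dotted line at 1.

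The calls by window followed these profiles. Of all 119 covered 100-bp windows of the chromosome, 16.8% had mTOR at 3 times IgG or more. Inside the genes 4 of 47 windows did so (8.51%), and all 4 lay in mt-Nd2; with 200-bp windows the share inside the genes was 4.76% of 21. The strongest were chrM:4701-4800 at 4.28 (3.89 to 4.71), chrM:4801-4900 at 4.23 and chrM:4601-4700 at 3.58. ERRα exceeded IgG in 17.6% of the covered windows of the chromosome and in 6 of the 47 inside the genes (12.8%), of which 5 lay in mt-Nd1 and 1 in mt-Nd3. The strongest for ERRα were chrM:2801-2900 at 2.80 (2.53 to 3.09), chrM:2901-3000 at 2.04 and chrM:3001-3100 at 1.59. Both shares inside the genes were below those outside them, which were 22.2% for mTOR and 20.8% for ERRα of 72 windows, with no test of the difference.

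mt-Nd4, mt-Nd5 and mt-Nd6 were alike in both ChIPs. mt-Nd4 and mt-Nd5 encode the outer antiporter-like subunits of the membrane arm, and mt-Nd6 encodes a subunit near the joint with mt-Nd1. In the covered 651 bases of mt-Nd4 (chrM:10894-11544) coverage averaged 277 for mTOR, 109 for ERRα and 130 for IgG. In mt-Nd5 (chrM:11742-13565) the averages were 324, 122 and 145 in the same order. In mt-Nd6 (chrM:13552-14070) they were 298, 110 and 132. The mTOR level was above the other libraries in each gene, and ERRα was the lowest of the 3.

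Ratios of mTOR to IgG were 2.14 (2.05 to 2.22) in mt-Nd4, 2.23 (2.18 to 2.28) in mt-Nd5 and 2.26 (2.16 to 2.36) in mt-Nd6, and the intervals of neighbours in this order overlapped. ERRα ratios were 0.842 (0.804 to 0.881), 0.837 (0.815 to 0.859) and 0.836 (0.794 to 0.880). No difference among the 3 genes was detectable in ERRα at this depth. mt-Nd6, the gene of the opposite strand, did not stand apart, although coverage carries no strand and could not separate the strands.

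Coverage itself varied more than the ratio in mt-Nd5. Single bases of mt-Nd5 ran from 184.5 to 483.4 in the mTOR ChIP, from 67.3 to 180.8 in the ERRα ChIP and from 85.2 to 195.6 in IgG. By window, mean coverage ran from 235 to 441 for mTOR, from 85.6 to 163 for ERRα and from 104 to 179 for IgG. The same 17 windows inside mt-Nd5 stayed between 2.00 and 2.46 times IgG for mTOR and between 0.735 and 0.918 for ERRα. The window with the lowest ERRα ratio inside the genes was chrM:13101-13200 in mt-Nd5, at 0.735 (0.647 to 0.834), followed by chrM:13701-13800 in mt-Nd6 at 0.764 and chrM:13001-13100 in mt-Nd5 at 0.766. In mt-Nd6 mTOR stood at 2.10 (1.98 to 2.23) over the 259 bases next to mt-Nd5. Over the other 260 it stood at 2.42 (2.28 to 2.57). Those intervals did not overlap, but they are too narrow, and the division was chosen after seeing the data. The 14 bases that mt-Nd5 and mt-Nd6 share, chrM:13552-13565, had mTOR at 1.94 and ERRα at 0.787 times IgG.

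**Figure D4:**
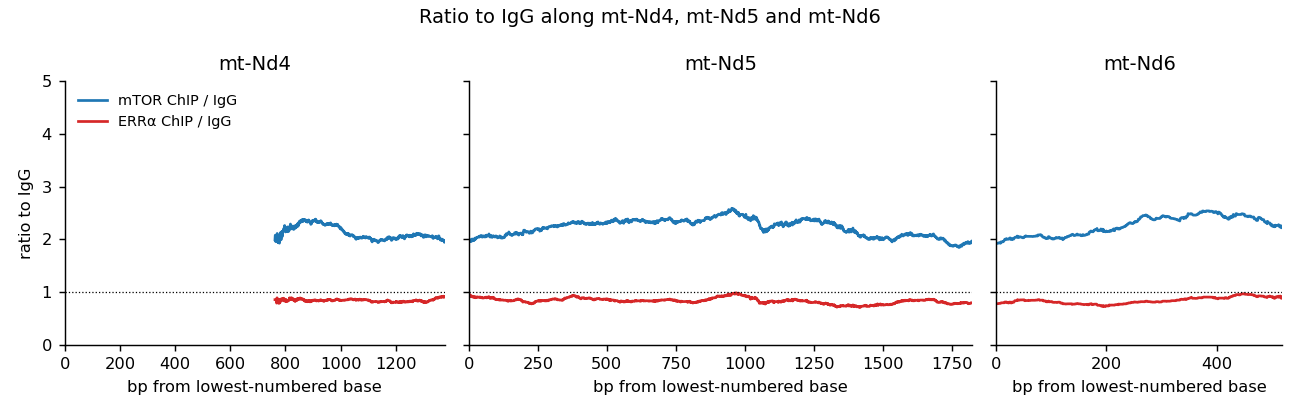
Ratio to IgG of the mTOR and ERRα ChIPs against distance in bp from the lowest-numbered base of mt-Nd4, mt-Nd5 and mt-Nd6, drawn where IgG coverage was at least 20. The mTOR line runs near 2 and the ERRα line mostly just under the dotted line at 1 in all 3 genes; the left part of mt-Nd4 had no IgG coverage.

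mt-Nd3 and mt-Nd4l, which encode small membrane subunits, could hardly be measured. Their covered bases lie in the short stretch chrM:9684-9960 between the 2 gaps. Over 123 covered bases of mt-Nd3 (chrM:9459-9806) coverage was 11.5 for mTOR, 5.81 for ERRα and 5.57 for IgG. Over 84 covered bases of mt-Nd4l (chrM:9877-10173) it was 11.4, 4.73 and 6.92. These levels, from about 31 and 27 IgG tags, are a small fraction of those in the other 5 genes.

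The mTOR ratio was 2.07 (1.33 to 3.34) in mt-Nd3 and 1.65 (0.973 to 2.75) in mt-Nd4l. ERRα stood at 1.04 (0.645 to 1.79) and 0.683 (0.364 to 1.27). Both mTOR intervals held the ratio of every other member, so no difference from them was detectable at this depth. Every covered base of both lies within 150 bp of a gap, and the 7 bases that mt-Nd4l shares with mt-Nd4 had no IgG coverage.

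**Figure D5:**
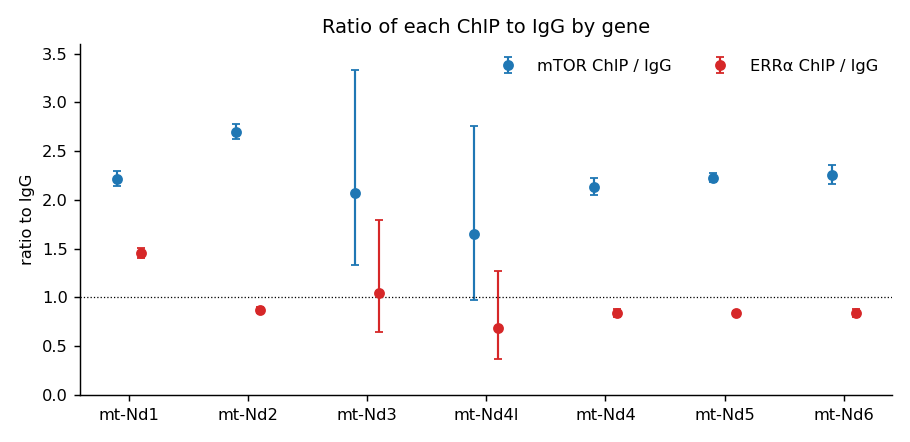
Ratio of each ChIP to IgG (vertical axis) in the 7 genes, with exact 95% intervals that cover counting error only and a dotted line at 1. mt-Nd2 is the highest gene for mTOR at 2.70 and mt-Nd1 for ERRα at 1.45; the intervals of mt-Nd3 and mt-Nd4l are wide because few tags fell there.

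Relative to the rest of the chromosome the complex I genes were low in mTOR. The ratio of mTOR to IgG was 3.52 (3.48 to 3.57) over the 7041 other covered bases, so that the genes stood at 0.656 times them, a comparison in which the amount of mitochondrial DNA in each library cancels. The stretch after mt-Nd6 (chrM:14071-16299), which holds the control region, had mTOR at 4.27 times IgG. Without that stretch the other bases were at 3.03 times and the genes stood at 0.764 times them. On the circle the stretch joins the first bases of chrM, which stayed in this set and were also high, with chrM:101-200 at 7.73. The median over single bases of the set was 2.63. Of the short stretches that separate members, that between mt-Nd1 (2.22) and mt-Nd2 (2.70) was at 2.32 (2.17 to 2.48). That between mt-Nd4 and mt-Nd5 was at 1.95 (1.79 to 2.12). Its interval overlapped that of mt-Nd4 but lay below that of mt-Nd5 (2.18 to 2.28), although these intervals are too narrow. The stretch between mt-Nd3 and mt-Nd4l, with few tags, was at 1.84 (1.18 to 2.85). The stretch from mt-Nd2 to mt-Nd3 (chrM:4952-9458) was at 2.57 over its 1590 covered bases. That before mt-Nd1 (chrM:1-2750) was at 3.37, with a median over single bases of 2.71.

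For ERRα the other covered bases had a ratio of 1.02 (1.01 to 1.04), and the genes stood at 0.930 times them. The stretch before mt-Nd1 was the highest at 1.21 (1.19 to 1.24), the other side of the signal that enters mt-Nd1. Other stretches had ratios of 0.783 to 0.984. mTOR and ERRα were thus raised in different places within the complex I genes, at the end of mt-Nd2 and the start of mt-Nd1 respectively, and whether another library would repeat either place was not tested.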

How the data were processed

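Tag coverage was measured by ChIP-seq in 1 mTOR, 1 ERRα and 1 IgG library, read as single 50-bp reads. The deposited values are signal tracks of coverage, scaled by the authors to 10000000 tags, per the file headers. BWA 0.5.9, MACS 1.4.1 and build mm9 appear in the submitters' processing notes without a role; whether duplicate tags were kept and how far tags were extended is not stated there. Each track's coverage divided by its tags gave about 149 bp. Track intervals on chrM had median widths of 2 to 4 bp.

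Gene positions came from the rule that defines the genes; all 7 lengths matched RefSeq genes of assembly GRCm38.p6, used only for names and neighbours. No mm9 annotation was used, so the nuclear complex I genes and the other mitochondrial genes planned for the case of such an annotation were not analysed here. Ratios are of summed coverage over bases with IgG coverage, with no pseudocount. Approximate tags are summed coverage times the library total, divided by the track's own sum. Windows of 100 bp were tiled from position 1 of chrM and kept where every base had IgG coverage. By rule, all 7 genes, the stretches between them and the 3 highest and 3 lowest windows of each ratio to IgG were considered for naming. The gene list and rules were chosen with earlier results of these data known. The profiles by 100 bases of mt-Nd1 and mt-Nd2, the widths and the division of genes into parts were chosen after seeing the data. The ratio code was tested on simulated data. Python 3.11.15, NumPy 2.4.6, pandas 2.3.3, SciPy 1.17.1 and Matplotlib 3.10.9 were used.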

Additional observations from a re-analysis of the deposited data

How the results depend on the processing

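The alternatives were run for the pooled ratios, the ratios of single genes, the genes against the other covered bases and the shares of windows, not for smaller parts of genes, single windows or stretches between genes. None of the pooled, single-gene or relative ratios crossed 1. With equal median nuclear coverage in place of the authors' scaling, the pooled ratio was 2.38 for mTOR and 0.987 for ERRα over IgG. With the median of the ratio per base it was 2.21 for mTOR and 0.858 for ERRα over IgG and 2.58 for mTOR over ERRα, and relative to the other covered bases mTOR stood at 0.830. Leaving out bases within 150 bp of a gap gave 0.687 for the latter. Base 1 of chrM also lacked IgG coverage, so this took out the first bases of the chromosome too. mTOR was high near there, at 7.73 times IgG in chrM:101-200, and the part of these bases in the change was not tested. Ending the other bases at mt-Nd6 gave 0.764 for mTOR and 0.862 for ERRα. With 200-bp windows, 4.76% of windows inside the genes had mTOR at 3 times IgG or more.

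Leaving out a gene was added after seeing the data. Without mt-Nd1 the pooled ratios were 0.846 for ERRα over IgG and 2.76 for mTOR over ERRα, and ERRα relative to the other bases was 0.829. Without mt-Nd2 the pooled ratios were 2.22 for mTOR and 0.969 for ERRα over IgG and 2.29 for mTOR over ERRα, and relative to the other bases 0.629 for mTOR and 0.949 for ERRα.

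Of 99 values of single genes under the alternatives, 91 stayed within the counting interval, and the others changed by 0.734 to 1.27 times. With the median of the ratio per base, mTOR over IgG in mt-Nd2 moved from 2.70 to 2.266, below mt-Nd5 and mt-Nd6. mt-Nd3 and mt-Nd4l gave no value 150 bp or more from a gap. No paired analysis was possible because each group has 1 library. Depth was lowest in mt-Nd3 and mt-Nd4l, whose intervals were the widest of the 7 genes.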

Other observations

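The coverage profiles of the libraries were nearly the same shape outside mt-Nd1 and mt-Nd2, the genes with a raised place. Those genes stood out by their ratios to IgG in these same data, so a closer match in the others follows in part from the choice. Over the 29 windows inside mt-Nd3, mt-Nd4, mt-Nd5 and mt-Nd6, Pearson's r between coverage in the mTOR ChIP and in IgG was 0.968 (Spearman's rho 0.904), between ERRα and IgG 0.984 (0.951), and between mTOR and ERRα 0.976 (0.923). Over all 47 windows inside the genes, which add those of mt-Nd1 and mt-Nd2, the same r values were 0.765, 0.487 and 0.290. The window in mt-Nd3, chrM:9701-9800, had coverage of only 12.4 for mTOR, 6.13 for ERRα and 5.77 for IgG, and its part in r was not tested. Windows are neighbours on 1 molecule and share sequence, so these values describe the libraries and carry no test.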
